A study of Mus musculus with 6 samples.

Results

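The genes described here are 36 transcripts of macrophages and other leukocytes, read in hearts from *Trdn-as* KO mice and from WT mice. They were chosen by gene symbol from a table of 21776 genes, and all 36 were found and tested. The lncRNA *Trdn-as* runs antisense to *Trdn*, which encodes triadin, a protein of calcium release. In the 3 KO hearts both alleles carried a polyadenylation signal placed by Cas9 in the first exon of *Trdn-as* in embryonic stem cells, and the chimeric founders had been backcrossed to C57BL/6. The 3 WT hearts lacked the insertion. The allele is present in every cell of the KO mice, leukocytes included, although the series text speaks of a deficiency in cardiomyocytes. Age is not given, and sex was not part of the study design. Transcripts of the Y chromosome were high and *Xist* was near 0 in all 6 hearts. Each heart gave 1 strand-specific total RNA library. Nothing in the labels says that the hearts of a group came from separate litters, so the p-values measure the spread between these hearts.

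The heart holds a standing population of macrophages that lie between the cardiomyocytes. They depend on signals through the CSF1 receptor, take up debris and dying cells, and carry scavenger receptors such as the mannose receptor and CD163. Resident macrophages that renew themselves locally are known to carry TIMD4, LYVE1 and FOLR2, whereas cells replaced from blood monocytes carry CCR2, and some macrophages present peptides on MHC class II molecules. In a whole-heart library these cells supply a small share of the RNA. A lower value can therefore mean fewer cells or less RNA per cell, and the 2 cannot be told apart in bulk tissue.

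The values are read counts divided by a size factor for each library, called normalised reads below. The libraries held between 2.59 and 3.62 M counted reads, with the smallest number in WT replicate 1. *Trdn-as*, listed as AC157017.2, had 1, 0 and 1 normalised reads in the KO hearts, given here and below in the order of replicates 1 to 3, and 690, 773 and 688 in the WT hearts, so the libraries matched their labels. *Trdn* had 2489, 2381 and 2551 normalised reads in KO and 1541, 1541 and 1516 in WT. With limma and Benjamini-Hochberg adjustment, 4 of 13753 genes tested had an adjusted p under 0.05, which is 0.0291% of genes, and none of the 36 leukocyte genes was among them. At an unadjusted p under 0.05 the count was 3 of 36 members, or 8.33%, beside 5.74% of all genes. These 3 were *Maf*, *C1qb* and *Cd163*, each higher in KO, where 2.94% of all genes were both higher and under that p. The smallest adjusted p of a member was 0.772, that of *Maf*.

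The leukocyte genes leaned to the KO side without any of them passing the test. Of the 36 members 29 were higher and 7 lower in KO, whereas 50.6% of all genes tested were higher. The 7 lower members were *Laptm5*, *Csf1r*, *Adgre1*, *C1qa*, *Stab1*, *Lyz2* and *H2-Eb1*, with log2 fold changes from -0.12 to -0.00. Under scaling to equal library totals 32 members were higher, since *Csf1r*, *Lyz2* and *Stab1* then changed sign, and the median of all genes rose to 0.02. The median log2 fold change of the members was 0.14, beside 0.00 over all genes and 0.01 over the 12706 genes tested whose mean lay within the range of the members. In 4 members, *Maf*, *C1qb*, *Itgb2* and *Tyrobp*, all 3 KO values lay above all 3 WT values, as they did in 4.64% of all genes. In 0 members did all KO values lie below all WT values, which was so in 4.44% of all genes. The members share cells, so their fold changes are not independent of each other. The 95% interval of the log2 fold change included 0 in 33 members and lay within 1 of 0 in 34, the exceptions being *Tyrobp* and *Ly86*, whose upper bounds were 1.25 and 1.12.

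**Figure D1:**
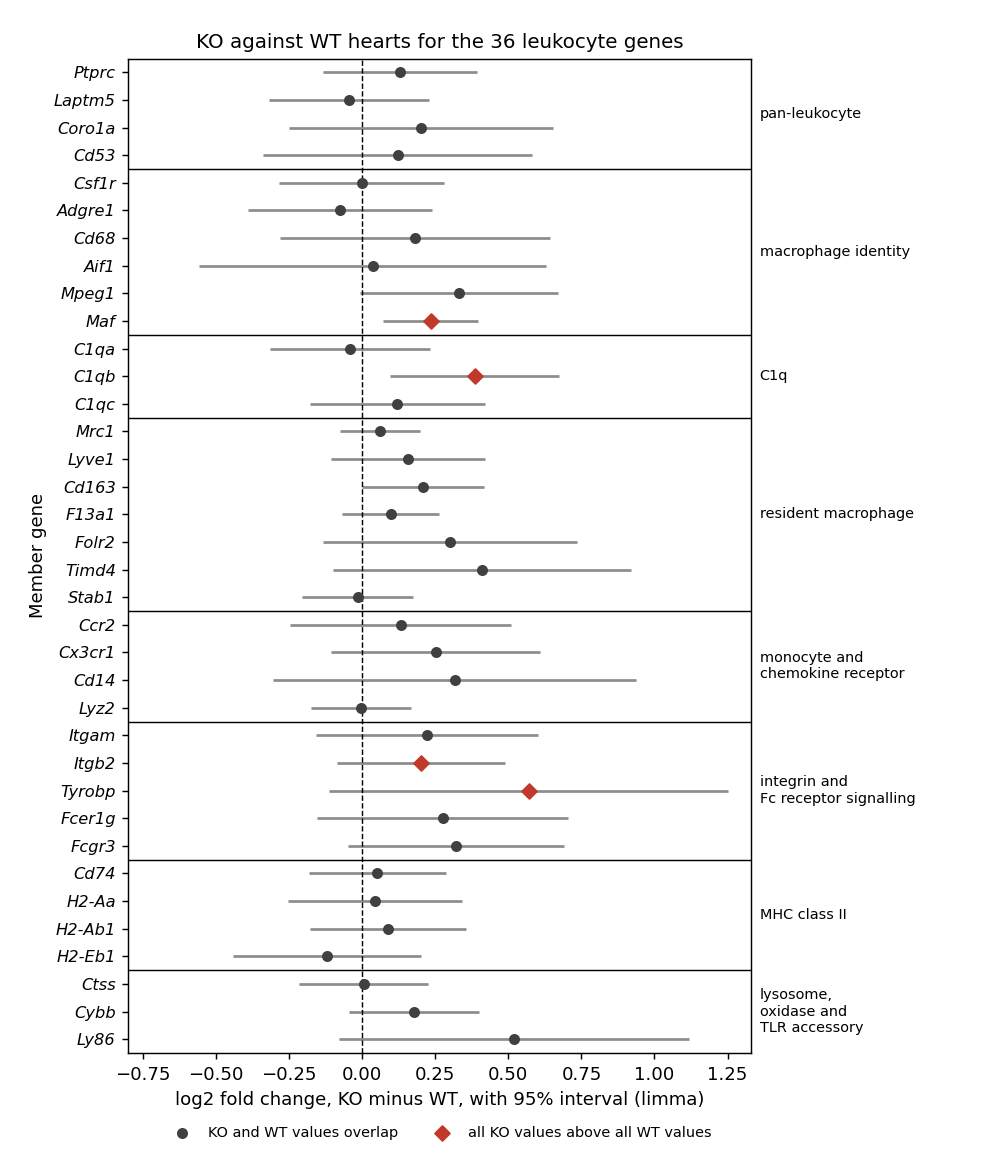
Log2 fold change, KO minus WT, of the 36 leukocyte genes with its 95% interval from limma (x axis), 1 row per gene and horizontal lines between role groups. Red diamonds mark the 4 genes whose KO values all lie above their WT values; most points lie right of 0, and 33 of the 36 intervals include 0.

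The 6 hearts differed within each genotype. KO replicate 2 had the highest value of the 6 hearts for 20 of the 36 members and the lowest for 2, whereas each heart was highest for 13.6 to 22.1% and lowest for 15.7 to 20.4% of all genes tested. KO replicate 3 was highest for 8 members and lowest for 0. KO replicate 1, in contrast, was highest for 5 and lowest for 10, and WT replicate 1 was highest for 1 and lowest for 12, tied values counted in each heart that shared them. The median deviation of the members from their mean over the 6 hearts was -0.07, 0.18 and 0.11 on the log2 scale in the KO hearts, and -0.09, -0.06 and -0.03 in the WT hearts. KO replicates 2 and 3 thus stood above the other 4 hearts, and KO replicate 1 lay among the WT hearts. The summed normalised reads of the members were 4902, 5948 and 5726 in KO and 5106, 5119 and 5200 in WT. The KO mean of 5525 ± 551 (SD, n = 3) was 1.07 times the WT mean of 5142 ± 50.9 (SD, n = 3), a difference smaller than the spread among the KO hearts. The members made up between 0.156% of the normalised reads of a library, in KO replicate 1, and 0.190%, in KO replicate 2. KO replicate 2 also had the highest sums of the endothelial, fat and atrial genes listed below, at 5515, 67 and 632 normalised reads. KO replicate 3 was close for endothelium, at 5481, and WT replicate 3 for atrium, at 624. Other macrophage genes (6116), CSF1 receptor ligands and transcription factors (998), cytokines (981) and complement (3368) were highest in KO replicate 2 too. So were blood monocytes (512), T and NK cells (81), B cells (527) and mast cells (43). KO replicate 2 had the lowest sums of the red cell and platelet genes, at 204, and of the class II regulators, at 1257. On the remaining lists of other genes another heart was highest. These lists are named here after their sums were seen.

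**Figure D2:**
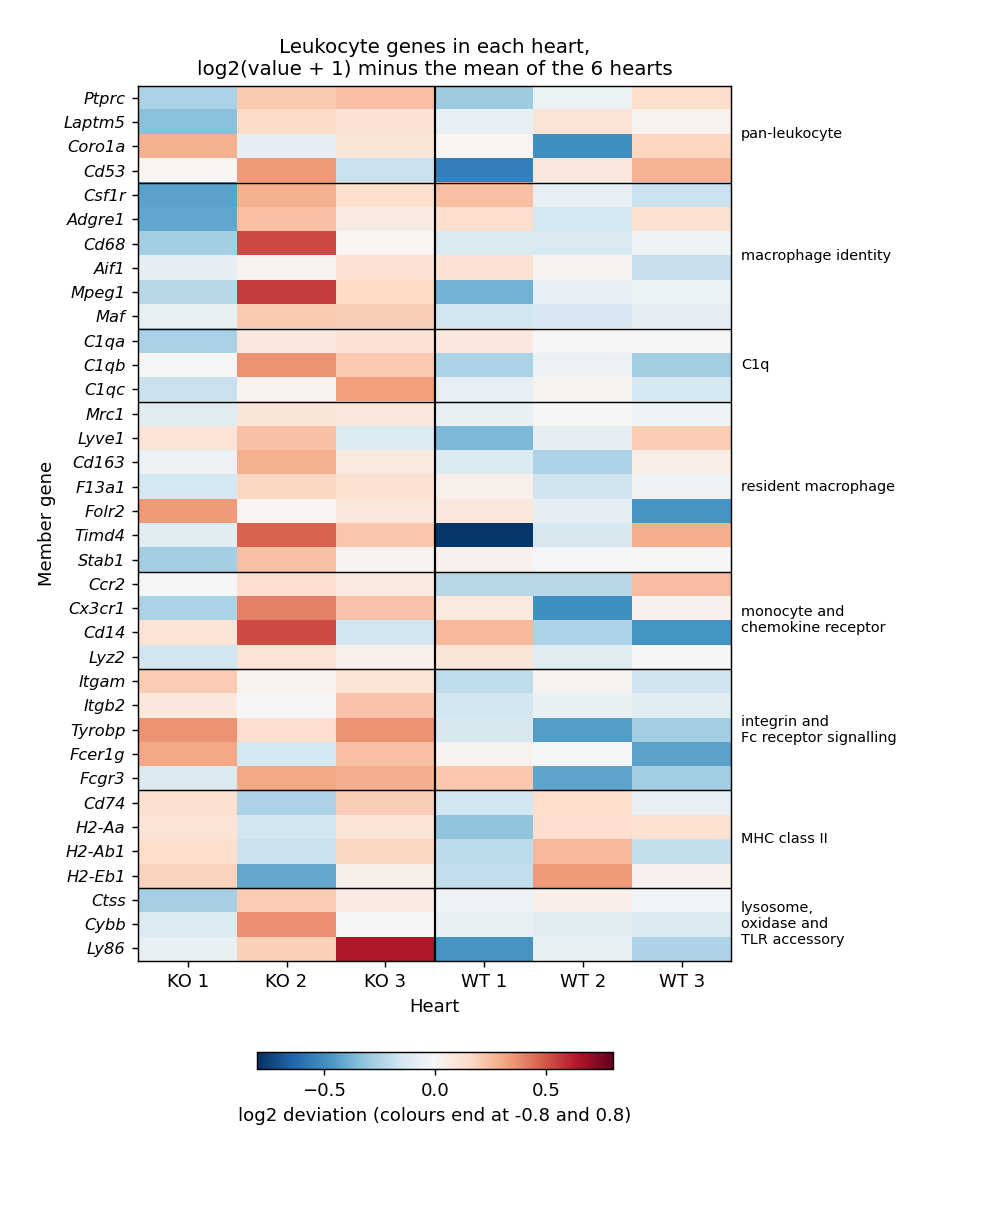
Deviation of log2(value + 1) from the mean of the 6 hearts for each of the 36 leukocyte genes (rows, grouped by role) in each heart (columns), red for higher and blue for lower. The column of KO replicate 2 is mostly red except in the MHC class II genes, whereas that of KO replicate 1 is blue in *Csf1r*, *Adgre1*, *Stab1* and *Ctss*.

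When KO replicate 1 was left out, 11 of the 35 members then tested had an unadjusted p under 0.05, all of them higher in KO, beside 8.24% of all genes. They were *Maf*, *C1qb*, *Cd163*, *Cybb*, *Ly86*, *Ptprc*, *F13a1*, *Mpeg1*, *Cx3cr1*, *Timd4* and *Fcgr3*. The smallest adjusted p was then 0.0861, again that of *Maf*, and 0 members were called. Without KO replicate 2 the count was 1, and *Maf* was that gene, beside 4.66% of all genes. Without WT replicate 3 it was 6, with *Lyve1*, *Mpeg1* and *Timd4* joining *Maf*, *C1qb* and *Cd163*, beside 8.60% of all genes. The number of members higher in KO ran from 24 of 35 without KO replicate 3 to 33 of 35 without KO replicate 1. Which heart was in the comparison therefore changed the count.

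Compared per exonic kilobase, which sets genes of different length on the same scale, the members ran from 4.45 normalised reads per kilobase for *Ly86* to 258 for *Lyz2*. *Ctss* (142), *Cd74* (112), *Mrc1* (102) and *C1qa* (85.6) followed *Lyz2*, all in normalised reads per kilobase over the 6 hearts. *Ptprc*, with 9.75 normalised reads per kilobase, *Aif1* with 9.03 and *Ccr2* with 6.63 were near the low end. The spread between hearts of the same group was wider than counting in most members. Within groups the variance was a median of 2.23 times that of counting, above 2 in 20 members and below 1 in 8, with the highest ratio, 11.3, in *Csf1r*.

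The pan-leukocyte genes are expressed by all or most white blood cells, so they cover more than macrophages. *Ptprc* encodes CD45, the membrane phosphatase of nucleated blood cells. It had 148, 204 and 209 normalised reads in KO and 145, 170 and 195 in WT. The groups overlapped, with KO replicate 1 beside the lowest WT heart, and the log2 fold change was 0.13 ± 0.13 (SE), from 0.021 without WT replicate 1 to 0.29 without KO replicate 1. *Laptm5*, a lysosomal membrane protein of blood cells, *Coro1a*, an actin-binding protein of leukocytes, and the tetraspanin *Cd53* had log2 fold changes of -0.05 to 0.20 with unadjusted p of 0.361 to 0.733. In KO and in WT respectively, *Laptm5* had 86 to 121 and 104 to 117 normalised reads, *Coro1a* 31 to 40 and 23 to 37, and *Cd53* 34 to 49 and 26 to 47. The 4 genes summed to 313, 405 and 396 normalised reads in KO and 308, 351 and 390 in WT.

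Among the macrophage identity genes *Maf* stood apart from the others. It encodes a transcription factor of macrophages that other cells express as well, and occupies 115682942 to 115707794 on chromosome 8, minus strand, in GRCm38. It had 379, 457 and 453 normalised reads in KO and 357, 360 and 375 in WT. The lowest KO heart, replicate 1, lay 4 reads above the highest WT heart. The log2 fold change was 0.23 ± 0.08 (SE), for which limma gave an unadjusted p of 0.00694 and an adjusted p of 0.772. With any single heart left out it stayed between 0.19 and 0.32.

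*Csf1r*, the receptor for the macrophage growth factors CSF1 and IL-34, is named with its values in every heart after these were seen, because its hearts differed most beyond counting. Its normalised reads were 201, 330 and 297 in KO and 319, 258 and 240 in WT. KO replicate 1 was the lowest of the 6 hearts and KO replicate 2 the highest, and the log2 fold change was -0.00 ± 0.13 (SE). *Adgre1*, which encodes F4/80, and *Cd68*, a lysosomal glycoprotein, also had their lowest value in KO replicate 1 and their highest in KO replicate 2. *Adgre1* had 70 to 111 normalised reads in KO and 85 to 103 in WT, and *Cd68* 26 to 46 in KO and 29 to 31 in WT. *Aif1*, which encodes IBA1, had 12 to 15 normalised reads in every heart. *Mpeg1*, the gene of the pore-forming protein perforin-2, had 78 to 135 normalised reads in KO and 70 to 88 in WT, and its log2 fold change was 0.33 ± 0.16 (SE) at an unadjusted p of 0.0558. The 6 identity genes summed to 767, 1093 and 997 normalised reads in KO and 893, 833 and 848 in WT, so the KO hearts lay on both sides of the WT hearts.

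The 3 chains of C1q, the recognition protein of the classical complement pathway, are made in large part by macrophages and are encoded side by side on the minus strand of chromosome 4 between 136880129 and 136898803. *C1qb* had 78, 100 and 90 normalised reads in KO and 65, 75 and 64 in WT. All KO hearts lay above all WT hearts, by 3 reads at the nearest pair. The log2 fold change was 0.39 ± 0.14 (SE), for which limma gave an unadjusted p of 0.0117 and an adjusted p of 0.807. Its neighbour *C1qa* had 74, 94 and 96 normalised reads in KO and 94, 88 and 88 in WT, and its log2 fold change was -0.04 ± 0.13 (SE). *C1qc*, which lies between them, had 71 to 102 normalised reads in KO and 73 to 82 in WT, and a log2 fold change of 0.12 ± 0.14 (SE). For every 100 normalised reads of *C1qa* there were 105, 106 and 93.8 of *C1qb* in KO and 69.1, 85.2 and 72.7 in WT, not scaled to exonic length. This ratio was chosen after the values were seen, and no test was run on it.

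**Figure D3:**
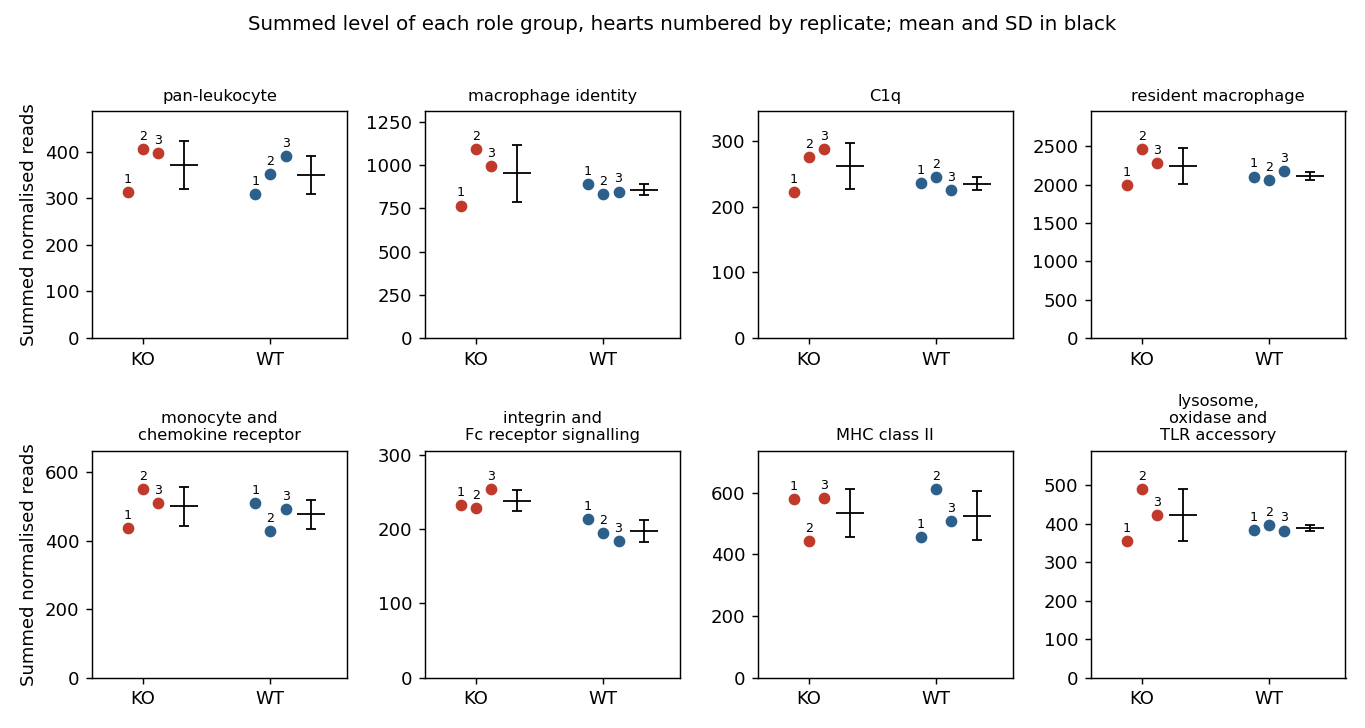
Summed normalised reads of each of the 8 role groups (y axes from 0) in the 3 KO hearts (red) and the 3 WT hearts (blue), each point a heart numbered by its replicate, with the mean and SD in black. KO replicate 1 lies below KO replicates 2 and 3 in most groups, and only in the integrin and Fc receptor group do all KO hearts lie above all WT hearts.

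The 7 resident macrophage genes summed to 1996, 2461 and 2277 normalised reads in KO and 2105, 2058 and 2171 in WT, so WT values fell inside the KO range. *Mrc1*, the mannose receptor, had 606, 694 and 690 normalised reads in KO and 623, 651 and 631 in WT, and the interval of its log2 fold change, -0.08 to 0.20, was the narrowest of the members. *Cd163*, the scavenger receptor for haemoglobin bound to haptoglobin, occupies 124304656 to 124330527 on chromosome 6, plus strand. It had 218, 275 and 238 normalised reads in KO and 208, 189 and 235 in WT. WT replicate 3 lay above KO replicate 1, so the groups overlapped. The log2 fold change was 0.21 ± 0.10 (SE), for which limma gave an unadjusted p of 0.0491 and an adjusted p of 0.851. Without KO replicate 2 the log2 fold change of *Cd163* was 0.12.

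*Lyve1* and *Timd4* mark the self-renewing resident population. *Lyve1*, a hyaluronan receptor that lymphatic endothelium carries too, had 168, 183 and 144 normalised reads in KO and 121, 147 and 179 in WT. *Timd4*, a receptor for phosphatidylserine on dying cells, had 33, 49 and 41 normalised reads in KO and 20, 32 and 43 in WT. Both overlapped between groups, and in both WT replicate 1 was the lowest heart. The log2 fold change of *Timd4* was 0.41 with an interval of -0.10 to 0.92, and it ran from 0.12 without WT replicate 1 to 0.66 without WT replicate 3. *Folr2*, the folate receptor of resident macrophages, had 34 to 43 normalised reads in KO and 24 to 36 in WT (unadjusted p 0.165). *F13a1*, the A chain of coagulation factor XIII, and *Stab1*, a scavenger receptor, had log2 fold changes of 0.10 ± 0.08 (SE) and -0.02 ± 0.09 (SE). *F13a1* had 514 to 636 normalised reads in KO and 508 to 584 in WT, and *Stab1* 414 to 590 in KO and 499 to 513 in WT.

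*Ccr2*, the receptor for the monocyte chemokine CCL2, had 44, 49 and 47 normalised reads in KO and 38, 38 and 53 in WT. WT replicate 3 was the highest heart, and the log2 fold change was 0.13 ± 0.18 (SE), from 0.053 without WT replicate 1 or 2 to 0.29 without WT replicate 3. For every 100 normalised reads of *Ccr2* there were 75, 100 and 87.2 of *Timd4* in KO and 52.6, 84.2 and 81.1 in WT. The ranges of this single pair of markers overlapped between groups. A list of other blood monocyte genes had 4 of 5 tested genes higher in KO, at a median log2 fold change of 0.38 and with 0 under an unadjusted p of 0.05. Its 6 genes in the table summed to 440, 512 and 421 normalised reads in KO and 456, 425 and 465 in WT, most of it *Ace*, which endothelium also expresses and which had a log2 fold change of -0.05. *Spn*, which encodes CD43, had 29, 28 and 23 normalised reads in KO and 15, 18 and 23 in WT (unadjusted p 0.0525), and *Itgal*, an integrin alpha chain, had 16, 26 and 18 in KO and 10, 13 and 19 in WT (unadjusted p 0.110). Both are named after their values were seen. *Lyz2*, the lysozyme of myeloid cells and the most abundant member per kilobase, had 304, 365 and 349 normalised reads in KO and 363, 317 and 339 in WT. The KO mean of 339.3 ± 31.6 and the WT mean of 339.7 ± 23.0 (SD, n = 3 each) were close, and the interval of the log2 fold change was -0.17 to 0.17. *Cx3cr1*, the fractalkine receptor, and *Cd14*, a co-receptor for lipopolysaccharide, had log2 fold changes of 0.25 ± 0.17 (SE) and 0.32 ± 0.30 (SE), and their groups overlapped. *Cx3cr1* had 72 to 114 normalised reads in KO and 61 to 91 in WT, and *Cd14* 14 to 23 in KO and 11 to 19 in WT.

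The genes of leukocyte integrins and of Fc receptor signalling were all 5 higher in KO, with log2 fold changes of 0.20 to 0.57 and a median of 0.28, and 0 of them had an unadjusted p under 0.05. Their sums were 232, 228 and 254 normalised reads in KO and 213, 194 and 184 in WT. The KO mean of 238 ± 14.0 was 1.21 times the WT mean of 197 ± 14.7 (SD, n = 3 each), and the lowest KO heart lay above the highest WT heart. Among the 8 role groups it was the 1 whose sums did not overlap, and it was singled out after the sums were seen. Over all genes tested, all KO values lay above all WT values in 4.64% and below them in 4.44%. Unlike most members, *Coro1a*, *Folr2*, *Itgam*, *Fcer1g* and *Tyrobp* had their highest value in KO replicate 1, which *Tyrobp* shared with KO replicate 3.

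*Itgb2*, the beta chain that all leukocyte beta-2 integrins share, occupies 77530252 to 77565686 on chromosome 10, plus strand. It had 74, 69 and 82 normalised reads in KO and 63, 67 and 65 in WT. The groups did not overlap, but the unadjusted p was 0.160 for a log2 fold change of 0.20 ± 0.14 (SE). *Tyrobp*, which encodes the signalling adaptor DAP12 and occupies 30413788 to 30417577 on chromosome 7, was the member with the largest fold change and the fewest reads. It had 13, 11 and 13 normalised reads in KO and 9, 7 and 8 in WT. At 0.57 ± 0.33 (SE) on the log2 scale, the unadjusted p was 0.0973. Values this small differ by only a few reads, since 3 reads in a library correspond to 2.61 to 3.77 normalised reads. *Fcer1g*, the common gamma chain of Fc receptors, *Fcgr3*, a low-affinity receptor for IgG, and *Itgam*, the alpha chain of the integrin Mac-1, overlapped between groups, with unadjusted p of 0.0849 to 0.236. In KO and in WT respectively, *Fcer1g* had 32 to 44 and 26 to 36 normalised reads, *Fcgr3* 57 to 77 and 46 to 72, and *Itgam* 39 to 44 and 33 to 39. *Itgam* is listed under 2 identifiers, and the second entry had 0 to 2 normalised reads in every heart and was left aside.

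The MHC class II genes took another order across the hearts than the other members, which was seen in the values and not tested. *H2-Aa*, *H2-Ab1* and *H2-Eb1* encode chains of the class II molecules that show peptides to CD4+ T cells, and *Cd74* encodes the invariant chain that guards the groove until loading. In promoters of this family a regulatory complex is known to bind an X box and a Y box at a set distance and to recruit the transactivator CIITA. RefSeq promoters (GRCm38.p6) were at hand for 26 of the 36 members, among them *H2-Aa* and *H2-Eb1*. Both are shown because they hold this pair of boxes. The capitals mark the X box core GCAAC and, downstream of it, the Y box CTGATTGG. The stretches are the 120 bases before each start, read on the strand of the gene, at chr17:34287824-34287943 on the minus strand for *H2-Aa* and chr17:34305747-34305866 on the plus strand for *H2-Eb1*.
H2-Aa: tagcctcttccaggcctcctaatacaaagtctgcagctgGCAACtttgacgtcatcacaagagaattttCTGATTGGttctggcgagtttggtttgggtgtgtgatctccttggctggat
H2-Eb1: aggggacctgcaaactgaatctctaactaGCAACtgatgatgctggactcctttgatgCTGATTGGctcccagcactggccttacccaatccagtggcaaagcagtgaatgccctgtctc

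The X box core and the Y box were 25 bases apart in *H2-Aa* and 24 bases apart in *H2-Eb1*. Searched on both strands in the 250 bases before each of 32851 starts, the Y box was present in 3.83% of promoters and the X box core in 29.9%. Among the 31 promoters of the members the Y box was present in 2, or 6.45%, and the X box core in 7, or 22.6%. The X box core 20 to 35 bases before the Y box, in either orientation, was present in 26 promoters, or 0.0791%. Among these were 2 of the 31 promoters of the members, or 6.45%, those of *H2-Aa* and *H2-Eb1*. The pair was found in no promoter of another member, *H2-Ab1* and *Cd74* included. The 26 promoters also included those of the class II genes *H2-Eb2* and *H2-Oa*. Most of these promoters, however, belonged to genes outside class II, such as *Mark3*, *Stard7* and *Elavl2*. GAGGAA, a core motif of the myeloid factor PU.1, was present on either strand in 14 of the 31 promoters of the members, or 45.2%, and in 23.3% of all promoters. The promoters with it included those of *Ptprc*, *C1qb*, *Mrc1*, *Ctss* and *Itgam*. These are matches of letters, and binding was not measured.

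The class II genes summed to 579, 444 and 581 normalised reads in KO and 456, 612 and 509 in WT. KO replicate 2 was the lowest heart, although for the other 32 members it was the highest, with 5504 normalised reads beside 4323 and 5145 in the other KO hearts and 4650, 4507 and 4691 in WT. *Cd74* had 205, 158 and 215 normalised reads in KO and 169, 207 and 179 in WT. *H2-Eb1*, given in every heart after its values were seen, had 120, 79 and 109 in KO and 92, 134 and 108 in WT, its lowest value again in KO replicate 2. *H2-Aa* had 78 to 93 normalised reads in KO and 69 to 95 in WT, and *H2-Ab1* 129 to 164 in KO and 126 to 176 in WT. *H2-Aa* and *H2-Ab1* were lowest in WT replicate 1, and all 3 genes of class II chains were highest in WT replicate 2. Class II reads per 100 reads of the other members were 13.4, 8.07 and 11.3 in KO and 9.81, 13.6 and 10.9 in WT, so the ratio varied among hearts of the same genotype. The 4 log2 fold changes lay between -0.12 and 0.09, with unadjusted p of 0.441 to 0.767. All 4 groups overlapped.

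**Figure D4:**
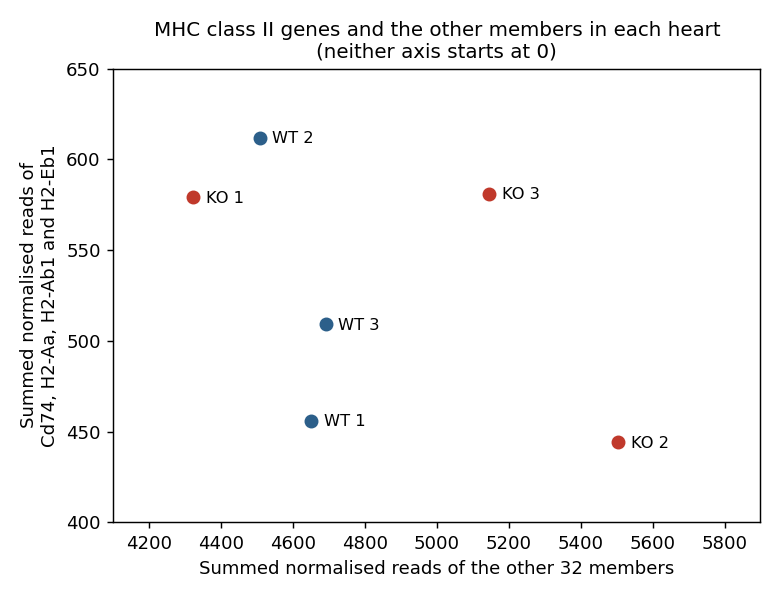
Summed normalised reads of *Cd74*, *H2-Aa*, *H2-Ab1* and *H2-Eb1* (y axis) against those of the other 32 leukocyte genes (x axis) in each of the 3 KO hearts (red) and 3 WT hearts (blue); neither axis starts at 0. KO replicate 2 is farthest right, at 5504, and lowest, at 444, and the KO and WT hearts overlap on the y axis.

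Of the genes that regulate class II transcription or load its peptides, 10 of 13 listed were tested, 3 higher and 7 lower in KO, 0 with an unadjusted p under 0.05. *Ciita*, the transactivator, had 27, 26 and 20 normalised reads in KO and 20, 25 and 27 in WT, a spread within that of counting, and is named for its role, not by the rule. The last role group holds enzymes and accessory proteins of phagocytes. *Cybb*, the catalytic subunit of the phagocyte NADPH oxidase, had 180, 250 and 195 normalised reads in KO and 186, 182 and 179 in WT. KO replicate 2 stood well above the other 5 hearts, and the unadjusted p was 0.109 for a log2 fold change of 0.18 ± 0.11 (SE), which was 0.039 without KO replicate 2 and 0.27 without KO replicate 1. *Ctss*, the protease that trims the invariant chain, had 160 to 222 normalised reads in KO and 187 to 200 in WT, and a log2 fold change of 0.0047 ± 0.11 (SE). *Ly86*, which encodes the Toll-like receptor partner MD-1, had 15 to 25 normalised reads in KO and 11 to 15 in WT, and the unadjusted p was 0.0858 for a log2 fold change of 0.52 ± 0.29 (SE).

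Other genes of macrophages were described from a list of their own. Of 39 listed, 33 passed the filter on low values, 19 of them higher and 14 lower in KO, at a median log2 fold change of 0.05, beside 0.14 for the members, and the difference between the lists was not tested. *Slc11a1*, a metal transporter of the phagosome, was the 1 gene of that list with an unadjusted p under 0.05. It had 28, 35 and 29 normalised reads in KO and 15, 20 and 20 in WT, which gave an adjusted p of 0.762 by limma at 0.72 ± 0.23 (SE) on the log2 scale. The ligands of the CSF1 receptor and the transcription factors of macrophages had 7 of 8 tested genes higher, with a median of 0.13 and 0 under that p. *Csf1*, the main ligand, had 324 to 470 normalised reads in KO and 297 to 455 in WT. *Spi1*, which encodes PU.1, had 20, 24 and 21 normalised reads in KO and 16, 20 and 19 in WT. Both overlapped between groups and are named for their role, not by the rule.

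Transcripts of the acute inflammatory cytokines were at a few reads in both groups. *Il1b* had 1 to 8, *Tnf* 2 to 9 and *Il6* 0 to 3 normalised reads over the 6 hearts, and 6 of the 9 tested genes of the cytokine and inflammasome list were higher in KO, 0 with an unadjusted p under 0.05. Of the monocyte chemokines 6 of 16 were tested, and *Ccl2* had 5 to 9 normalised reads in every heart. *Cxcl1*, a neutrophil chemokine under the filter and so not tested, had 12, 9 and 10 normalised reads in KO and 3, 5 and 8 in WT. The order was reversed in *Spp1*, from the list of other macrophage genes and also under the filter. *Spp1* had 2, 2 and 2 normalised reads in KO and 5, 3 and 7 in WT. Both are named after their values were seen. *Cxcl12*, which stromal cells make, was the 1 chemokine gene with an unadjusted p under 0.05. It had 923, 1069 and 940 normalised reads in KO and 1197, 1148 and 1023 in WT, which gave an adjusted p of 0.772 at -0.20 ± 0.07 (SE) on the log2 scale. Among complement genes other than C1q, 5 of 11 tested were higher and 6 lower. *C1s1*, a protease that works with C1q, had 128, 176 and 176 normalised reads in KO and 121, 130 and 140 in WT (unadjusted p 0.0303), and *Clu*, an inhibitor of the terminal pathway, had 561, 585 and 550 in KO and 643, 613 and 655 in WT (unadjusted p 0.0117). The adjusted p of *C1s1* was 0.851 and that of *Clu* 0.807.

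Of 15 genes of T cells and NK cells, 2 were tested. The T cell receptor genes *Cd3e*, *Cd3g* and *Cd3d* had 0 to 5 normalised reads in every heart. *Cd247*, the zeta chain of the same receptor, had 27, 22 and 31 normalised reads in KO and 15, 18 and 9 in WT. On the log2 scale this was 0.92 ± 0.28 (SE), at an unadjusted p of 0.00397 and an adjusted p of 0.745. *Cd79a*, a B cell receptor chain, had 1 to 9 normalised reads, whereas on the same list *Ighm*, the heavy chain of IgM, had 42 to 74, *Bank1*, a B cell scaffold protein, 32 to 64 and *Pax5*, a B cell transcription factor, 9 to 27. These were chosen after their values were seen. The 10 genes of B cells and plasma cells summed to 486, 527 and 489 normalised reads in KO and 473, 448 and 513 in WT, most of it *Ebf1*, which other cells express as well. The mast cell list summed to 22 to 43 normalised reads and the list of 8 dendritic cell genes to 196 to 258, most of it *Zbtb46*, which endothelium expresses too.

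The neutrophil list summed to 76 normalised reads in KO replicate 1 and to 11 to 29 in the other 5 hearts. In that heart *S100a9* had 20 normalised reads, beside 3 to 8 in the others, *Ngp* had 15 beside 0 to 1, and *Ltf* had 10 beside 0 to 3. Each of these is a granule or calcium-binding protein gene of neutrophils, and is named after its values were seen. Of the other genes of the list, *S100a8*, *Retnlg* and *Camp* were also highest there, at 5, 2 and 3 normalised reads. *Cxcr2* and *Mmp8* were tied between KO replicates 1 and 2, at 7 and at 3 normalised reads. *Csf3r* was highest in WT replicate 2, with 15 normalised reads beside 11 in KO replicate 1. Among members that neutrophils also express, *Itgam*, *Fcer1g* and *Coro1a* were highest in KO replicate 1, with *Tyrobp* tied for the highest. *Ptprc*, *Itgb2*, *Cybb* and *Fcgr3* were not highest in that heart, and *Laptm5* and *Lyz2* were lowest there. *Folr2*, a macrophage gene, was highest in KO replicate 1 as well, and *Csf1r* and *Adgre1* were lowest. The part of neutrophil RNA in these values was not tested.

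The other cells of the heart are given beside the members because reads per library are shared among them. All 8 cardiomyocyte genes were lower in KO, 5 of them at an unadjusted p under 0.05 and 0 called, with a median log2 fold change of -0.16. Their sums were 23871, 25077 and 25646 normalised reads in KO and 30799, 27558 and 24903 in WT, highest in WT replicate 1 and lowest in KO replicate 1, the lowest hearts for 12 and 10 members. The 5 were *Myh6*, *Tnnt2*, *Ryr2*, *Atp2a2* and *Pln*, which encode sarcomere and calcium handling proteins. All 8 endothelial genes were higher, with a median of 0.03, and *Vwf*, which encodes von Willebrand factor, had 446, 576 and 491 normalised reads in KO and 365, 388 and 441 in WT (log2 fold change 0.34, unadjusted p 0.00108, adjusted p 0.551 by limma). All KO hearts lay above all WT hearts, and *Vwf* was called in 1 of the alternatives, without KO replicate 1 (adjusted p 0.0484, beside up to 0.999 in the others). Fibroblast genes summed to 3739 to 4184 normalised reads in KO and 3936 to 4201 in WT. Lymphatic endothelium, which shares *Lyve1* with macrophages, summed to 1436 to 1526 in KO and 1566 to 1608 in WT. Most of it was the factor *Prox1*, which cardiomyocytes express as well. *Prox1* had 1091, 1024 and 1008 normalised reads in KO and 1170, 1151 and 1152 in WT (log2 fold change -0.15, unadjusted p 0.0121 and adjusted p 0.807 by limma). Of the 6 lymphatic genes 4 were higher and 2 lower in KO, at a median log2 fold change of 0.01. Of the 10 genes of red cells and platelets 8 were tested, and all 8 were lower in KO. The 10 genes summed to 435, 204 and 255 in KO and 522, 211 and 405 in WT, so their level varied among hearts of both groups. Among them the platelet gene *Ppbp* had a log2 fold change of -1.25 at an adjusted p of 0.851 by limma, and was called without KO replicate 1 at -2.38 (adjusted p 0.0342). *Ppbp* is named after its values were seen. The part of these cells in the members' values was not tested. Without WT replicate 1 the median log2 fold change of the members was 0.12, with 27 of 36 higher.

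**Figure D5:**
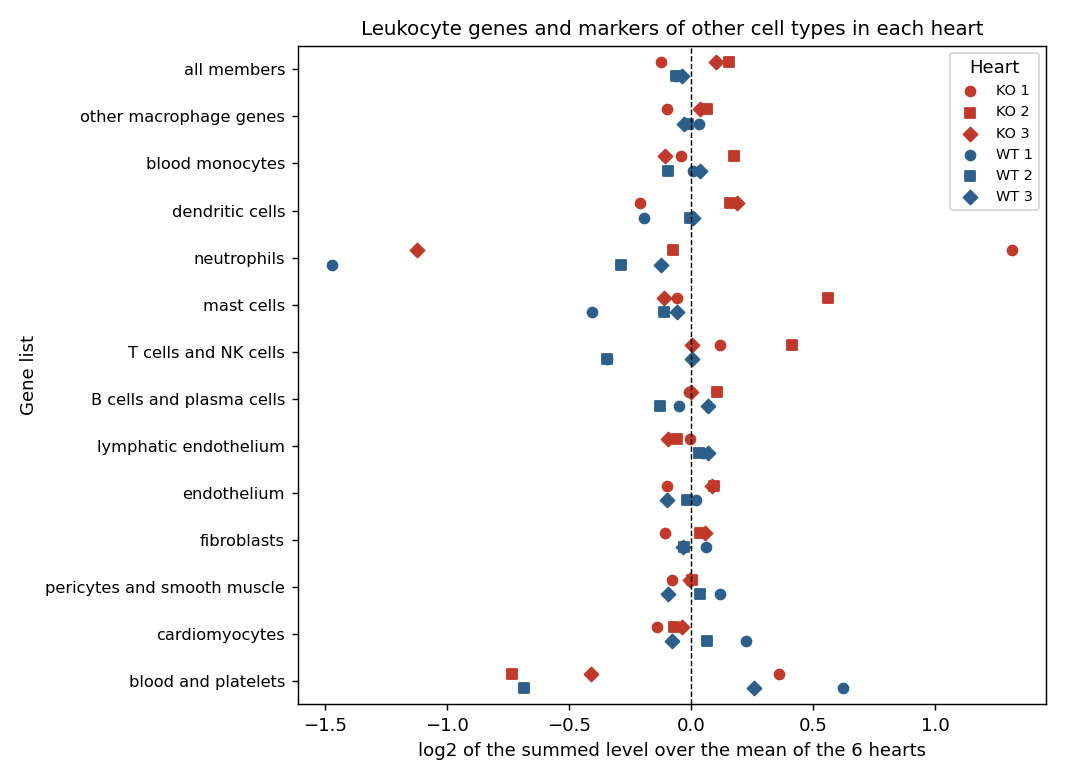
Log2 of the summed normalised reads of each gene list over the mean of the 6 hearts (x axis), with KO hearts in red, WT hearts in blue and the marker shape giving the replicate. The leukocyte members spread by less than the neutrophil, mast cell and blood lists, and by more than the other macrophage, endothelial and fibroblast lists. The neutrophil and mast cell sums are small, and KO replicate 1 lies far right in the neutrophil list at 76 normalised reads.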

How the data were processed

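RNA of 3 *Trdn-as* KO and 3 WT hearts was sequenced as strand-specific total RNA, 1 library per heart. Per the submitters' processing notes and the methods of the study, the authors trimmed reads with Trimmomatic 0.39, aligned them with STAR 2.6.1d to GRCm38, removed duplicates with Picard 2.21.1 and multi-mapping reads, and counted exonic reads with featureCounts 1.6.5. Multi-mapping removal can lower genes with close copies. The deposited values are scores, namely counts that the authors divided by DESeq2 1.18.1 size factors and rounded to whole numbers, so a count test could not be used. Size factors were estimated from the skipped and repeated whole numbers, tested on simulated data, to give read totals and the floor of 3 reads, which covers counting error only.

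Genes with a mean of at least 10 (13753) were tested on log2(value + 1) with limma 3.58.1 in R 4.3.3 (eBayes with trend, no covariate, two-sided, Benjamini-Hochberg over all genes, threshold 0.05), a fit checked on simulated data. A fold change is on that scale, which understates low genes. Exonic lengths came from GENCODE M21, which holds 99.8% of the identifiers, and coordinates from the table. Promoters came from RefSeq (GRCm38.p6), and the sequence of 10 members was not used here.

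The members and all lists were chosen with earlier results of these data known. Members with an unadjusted p under 0.05 or with groups that do not overlap, the member with the highest mean in each role group, and *Timd4*, *Ccr2* and *Lyve1* are given in every heart, the others by range. Genes of other lists are named at an unadjusted p under 0.05 or where their near absence bears on a member, and, chosen after values were seen, *Csf1*, *Spi1* and *Ciita* for their role and *Ace*, *Ebf1* and *Zbtb46* for holding most of a list's reads. Any other choice made later is named beside its value. The lists cover other macrophage genes, CSF1 receptor ligands, chemokines, cytokines, class II regulators, complement, blood monocytes, dendritic cells, neutrophils, mast cells, T and NK cells, B cells, endothelium, lymphatic endothelium, fibroblasts, pericytes, cardiomyocytes, blood, fat, atrium and sex-linked genes. Alternatives were median-of-ratios and total scaling, other filters, a pseudocount of 0.1, limma-voom, no variance trend, a replicate block, and leaving out each heart.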

Additional observations from a re-analysis of the deposited data

How the results depend on the processing

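Across 14 alternatives 0 leukocyte genes were called. The smallest adjusted p of a member was 0.0861 with KO replicate 1 left out, 0.417 with WT replicate 3 left out, and 0.700 to 0.999 under the other 12. The median log2 fold change of the members stayed positive, between 0.12 and 0.19, and was 0.17 under total scaling and under limma-voom. Members with an unadjusted p under 0.05 were 3 or 4 outside the fits that left out a heart, beside 5.29 to 6.04% of all genes, and 1 (without KO replicate 2) to 11 (without KO replicate 1) within these, with 6 without WT replicate 3, beside 3.69 to 8.60% of all genes. The genes were not the same throughout. Without the mean-variance trend they were *C1qb*, *Tyrobp* and *Ly86*, and the unadjusted p was 0.0505 for *Maf* and 0.141 for *Cd163*. The genes called among all tested, 12876 to 21776 by setting, were 4 in the main analysis, 2 with at least 10 in every library, 1 without the mean-variance trend, and 2 to 32 over the fits that left out a heart, with 32 without KO replicate 1 and 7 without WT replicate 3. The cause was not tested.

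Of the members described in every heart under the naming rule, 3 changed sign. *Lyz2* was at 0.020 under total scaling and under limma-voom, and ran from -0.058 to 0.073 when a heart was left out. *C1qa* ran from -0.11 to 0.078 and *Cd74* from -0.034 to 0.19, both over the fits that left out a heart. Leaving out 1 heart changed the sign or moved the log2 fold change by over 1.5 times in 31 of the 36 members, the others being *Maf*, *C1qb*, *Itgam*, *Itgb2* and *Tyrobp*. Of all 36 members, 22 kept their direction in every alternative in which they were tested. *Tyrobp* was not tested with at least 10 in every library, or without KO replicate 1 or 3, since its mean or values were then too low.

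Replicate numbers did not pair the hearts, since the deviations of same-numbered KO and WT hearts correlated at 0.048, -0.068 and -0.028 across genes. With a replicate block 3 members had an unadjusted p under 0.05, namely *Maf*, *C1qb* and *Mpeg1*, beside 5.82% of all genes, 0 were called, the median was 0.14 and 4 genes were called in all, the same 4 as without it.

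With 3 hearts per group the standard errors of the members' log2 fold changes ran from 0.07 to 0.33, and 33 of the 36 intervals included 0. Genes with a mean under 20 normalised reads, such as *Tyrobp*, *Aif1*, *Cd14* and *Ly86*, are limited most by counting.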

Other observations

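Lists not compared between genotypes above are given as values. The fat genes summed to 67 normalised reads in KO replicate 2 and to 14 to 26 in the other 5 hearts, and the atrial genes summed to 437 to 632 in KO and 453 to 624 in WT. Smooth muscle and pericyte genes summed to 5475 to 5784 in KO and 5409 to 6272 in WT. The sex-linked genes summed to 1906 to 1999 in KO and 1840 to 1934 in WT.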
